A study of Glycine max with 42 samples.

Results

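The genes described here were 200 genes of soybean (Glycine max) leaves whose normalised counts were higher in old than in young fertile leaves of line T295H and nearly level between old sterile and old fertile leaves. They were chosen among 37403 genes listed for T295H, out of 39557 gene IDs over both lines of the study. A gene qualified if its mean in T295H control leaves of day 63 was at least 50 normalised counts, which 18299 genes met, and if the sterile and control means of day 63 differed by less than 0.5 on the log2(normalised count + 1) scale, which 7244 genes met as well. Of these, the 200 with the largest excess of the day 63 control mean over the higher of the initial and the day 35 control means were kept. The T295H values therefore chose the genes and are given as a description without a test, whereas the second line, Williams 82, took no part in the choice. All 200 IDs were also listed for Williams 82.

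The study profiled RNA of trifoliate leaves by sequencing, with 3 libraries in each of 14 groups. In T295H the groups were initial leaves of day 28 after planting (the R2 flowering stage), control and sterile leaves of day 35, and control and sterile leaves of day 63, the sterile plants being the genetically sink-limited ones. In Williams 82, initial leaves of day 38 (R2) were followed by control leaves of days 45, 54, 64 and 76 and by depodded leaves, from plants limited mechanically, of days 45, 54, 64 and 76. The initial leaves carry neither a control nor a treatment label, and neither the sterility allele nor the depodding schedule nor any pooling of plants is stated. Nothing in the labels ties the libraries of 1 group to different plants, so the p-values measure the spread between libraries, which may be technical. For the last depodded groups the label and the title disagree: the libraries with a label of day 64 have sampling number 5 in their titles, the number of the day 76 controls, and those with a label of day 76 have number 4, that of the day 64 controls. Groups follow the label below, and each late result is also given with the controls that the title number points to.

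In a soybean plant the leaves are the source of sugars and reduced nitrogen and the filling pods are the main sink. As seeds fill, nitrogen and other nutrients are withdrawn from the leaves, which yellow and are shed, and plants without pods commonly keep green leaves that hold storage protein and starch. A leaf also matures and ages on its own schedule, so a transcript can rise with leaf age whether or not pods are present. None of the 39557 IDs matched the gene table at hand, so the genes are given by ID without names or functions, and the leaf identity of the libraries could not be checked on named markers. In whole leaves, fewer cells of a type and less RNA per cell cannot be told apart.

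Total counts recovered from the normalised values ran from 5471456 to 11877733 per T295H library and from 6663477 to 13166094 per Williams 82 library. Initial replicate 2 of T295H stood apart: it had the lowest total, its 10 most abundant genes took 41.3% of its counts, and 17 of the 200 genes were at 0 in it. With that library left out the rule chose 188 of the same 200 genes. The choice depended more on the day 63 libraries, since 134 of the 200 were chosen again without sterile replicate 3 of day 63, and between 143 and 152 without any other single library of that day.

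In T295H, the 200 genes had day 63 control means between 50.1 and 9760 normalised counts, with a median of 195. For 22 genes this mean was at least 1000 and for 58 it was under 100. The excess of the day 63 controls over the higher earlier mean ran from 1.14 to 3.77 on the log2 scale, with a median of 1.49, and was at least 2 for 43 genes and at least 3 for 10 genes. The higher earlier mean was that of the day 35 controls for 154 genes and that of the initial leaves for 46. The median gene's group mean was 5.34 in initial leaves, 6.03 in day 35 controls and 7.58 in day 63 controls, all as log2(normalised count + 1).

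In day 63 leaves of T295H the median difference of sterile from control leaves was -0.27, and 163 of the 200 were below 0. The rule used these same libraries and took the genes with the largest excess of the control mean, which favours differences below 0, so nothing is read from that count. The genes were level in the sense of the rule, within 0.5 in either direction, and 83 of the 200 lay within 0.25. Sterile leaves of day 35, which the rule did not use, differed from their controls by a median of -0.12, with 144 genes within 0.5 and a full range from -1.97 to 2.14. Day 63 sterile leaves had higher means than day 35 sterile leaves for all 200 genes, by 0.24 to 4.2 and a median of 1.56. The day 35 controls in the first of these comparisons and the day 63 sterile leaves in the second were among the libraries that chose the genes.

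**Figure D1:**
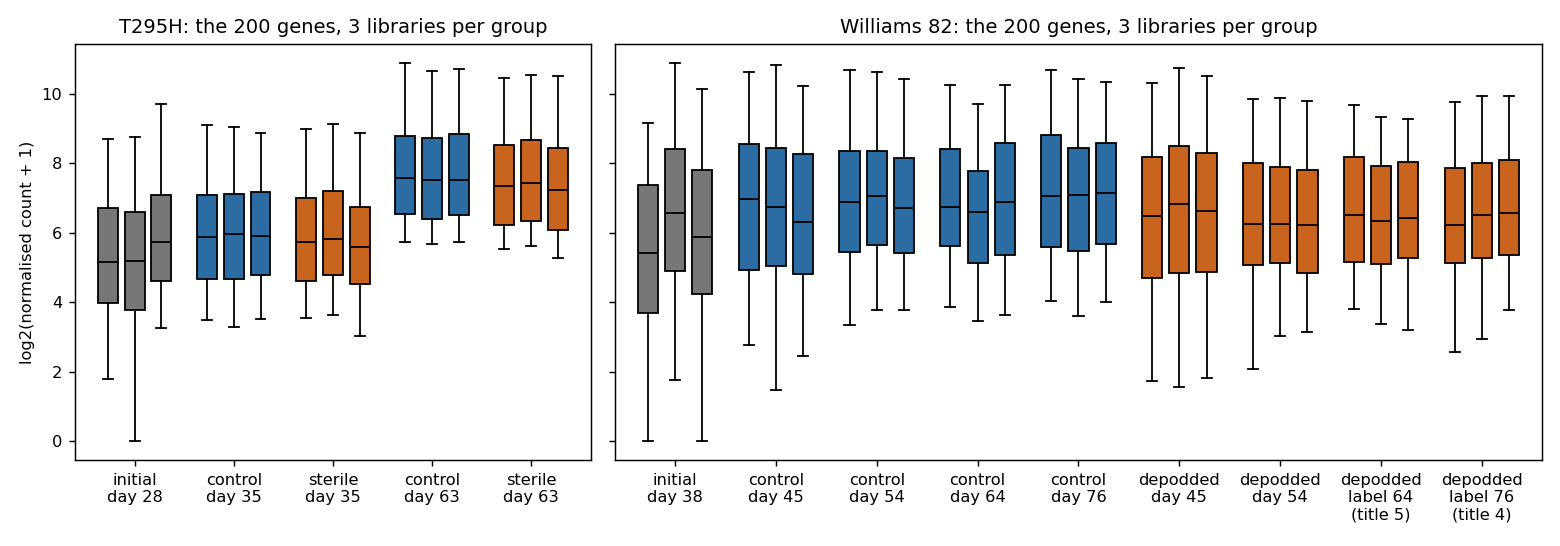
Distribution of the 200 genes in each library, as log2(normalised count + 1), for T295H (left) and Williams 82 (right). Each box is 1 library (line at the median, box from the 25th to the 75th percentile, whiskers from the 5th to the 95th), with initial leaves in grey, controls in blue and sink-limited leaves in orange. The day 63 libraries of T295H have medians of 7.23 to 7.57 and the earlier ones 5.16 to 5.96. The rule fixes this for the initial leaves, the controls and the day 63 sterile leaves, which it held near the day 63 controls. The Williams 82 control medians differ less from one another.

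Glyma.13G306300 had the largest excess, 3.77. Its T295H counts were 7.46, 6.44 and 19.4 in initial leaves, 20.5, 8.76 and 28.2 in day 35 controls and 221, 345 and 202 in day 63 controls. Day 63 sterile leaves held 319, 526 and 64.7 normalised counts. The old control libraries all lay far above the young ones, and the sterile libraries of the same day spread on both sides of the controls. In Williams 82 the gene was already at 163, 218 and 191 in initial leaves and stood at 165, 345 and 502 in day 76 controls. Those groups overlapped, and the difference of 0.69 ± 0.47 (log2, SE) did not pass the limma test (adjusted p = 0.24).

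Glyma.01G131500, second with 3.68, moved from 253, 209 and 187 normalised counts in day 35 controls of T295H to 2980, 3142 and 2461 in day 63 controls. Its initial libraries held 234, 335 and 138, and its day 63 sterile libraries 1745, 3748 and 1338. In T295H, no old library came near the young ones. In Williams 82 the groups overlapped, at 528, 1719 and 1321 in initial leaves and 1080, 1353 and 1078 at day 76, and no change was called (0.13 ± 0.33, adjusted p = 0.78 by limma). At the other end of the choice, Glyma.08G296800 was the last gene taken, with an excess of 1.141, and Glyma.09G089500 the first left out, with 1.140.

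The Williams 82 controls were used to see whether the genes rise with leaf age in a line and an experiment that did not choose them. Of the 200 genes, 196 had a mean of at least 10 normalised counts over the Williams 82 libraries and entered the test, which was run with limma over 29208 genes. From initial leaves to day 76, 89 of the 200 rose and 8 fell at an adjusted p under 0.05, and 99 were tested and not called. Among all genes tested, 20.1% were called higher and 23.7% lower in this comparison. The median change was 0.99 for the 200 genes and 0.04 for all genes tested. The mean was higher at day 76 for 154 of the 200 (77%), against 51.7% of all genes tested. With a minimum mean of 50, which 137 of the 200 reach, 54 were called higher, and 57 were called higher when only the compared libraries were fitted, where 3 rather than 8 were lower. The 8 became 5 without day 76 control replicate 1 and 4 without initial replicate 2.

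The size of the excess in T295H was also set beside the size of the change in Williams 82. The rule ranked the genes by this excess and kept none under 1.14. That cut narrows its range and favours a weak relation, so no conclusion is drawn from the values or from the split at 2 below. Across the 200 genes Pearson's r was 0.07 and Spearman's rho 0.1, a description over genes of separate libraries, which are not independent replicates. Of the 43 genes with an excess of at least 2 in T295H, 19 were called higher at day 76 in Williams 82 and 1 lower, with a median change of 1.24. The 157 others had 70 higher and 7 lower, with a median of 0.98. Among the 22 most abundant genes, with day 63 control means of at least 1000 in T295H, 9 rose and 1 fell, and among the 58 with means under 100, 22 rose and 1 fell.

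**Figure D2:**
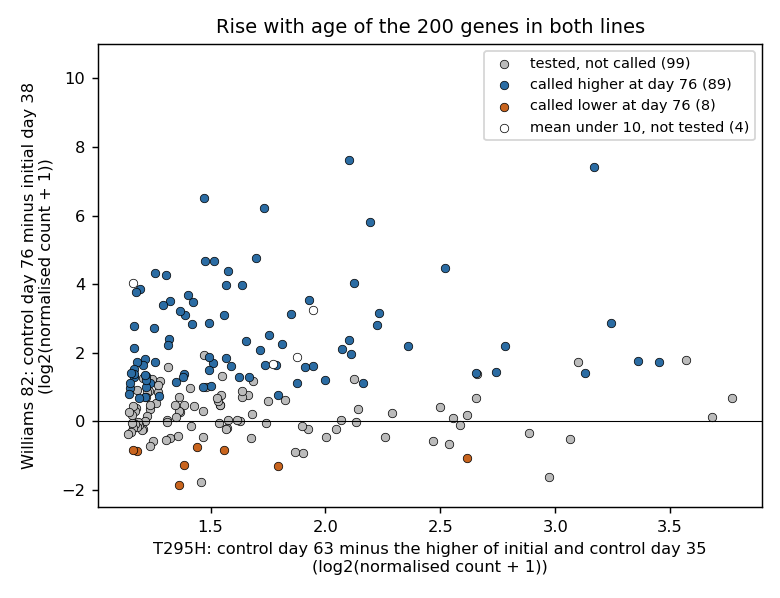
Each point is 1 of the 200 genes, placed by its excess in old T295H controls (x axis, log2 difference, the value that chose the genes) and by its difference between day 76 controls and initial leaves of Williams 82 (y axis, log2 difference). Blue points (89) were called higher and orange points (8) lower, grey points (99) were tested and not called, and 4 white points had a mean under 10. The points form no line, with r = 0.07, over a range of x values that the rule cut.

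The change with age was also followed step by step in the Williams 82 controls. From initial leaves to day 45, 23 rose and 2 fell (all genes tested: 2.99% higher, 2.8% lower), with a median change of 0.55. That count rested on single libraries: it was 3 without day 45 control replicate 1, 5 without day 45 replicate 2, 4 without initial replicate 1, 15 without initial replicate 3 and 65 without initial replicate 2. It was 0 with only the compared libraries fitted and 10 by edgeR. From day 45 to day 54, 27 rose and 12 fell (all genes: 12.4% higher, 14.9% lower), with a median of 0.42, and 16 rose without day 45 replicate 2. The 27 are 13.5% of the 200, close to the share of all genes.

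From day 54 to day 64 no gene of the 200 was called by limma in either direction (all genes: 0.0753% higher, 0.11% lower), and the median difference was 0.01. At an unadjusted p under 0.05 there were 12 higher and 18 lower. edgeR likewise called 0, and DESeq2 called 4 higher and 5 lower, with 551 of all genes called in either direction. From day 64 to day 76, 33 rose and 12 fell (all genes: 15.9% higher, 17% lower), with a median of 0.25, and 20 rose without day 64 replicate 2. The 33 and 12 are 16.5% and 6% of the 200, so the share that rose at this step was close to that of all genes, while the share that fell was smaller.

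The highest mean of the control series, initial leaves included, lay at day 76 for 73 of the 200 genes (36.5%, against 26% of all genes tested), at day 64 for 44, at day 54 for 38, at day 45 for 33 and in initial leaves for 12 (6%, against 26% of all genes). The means increased at each of the 4 steps for 23 of the 200 (11.5%) and for 3.91% of all genes tested. The median gene's group mean was 5.9 in initial leaves, 6.7 at day 45, 6.84 at day 54, 6.77 at day 64 and 7.13 at day 76, as log2(normalised count + 1).

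**Figure D3:**
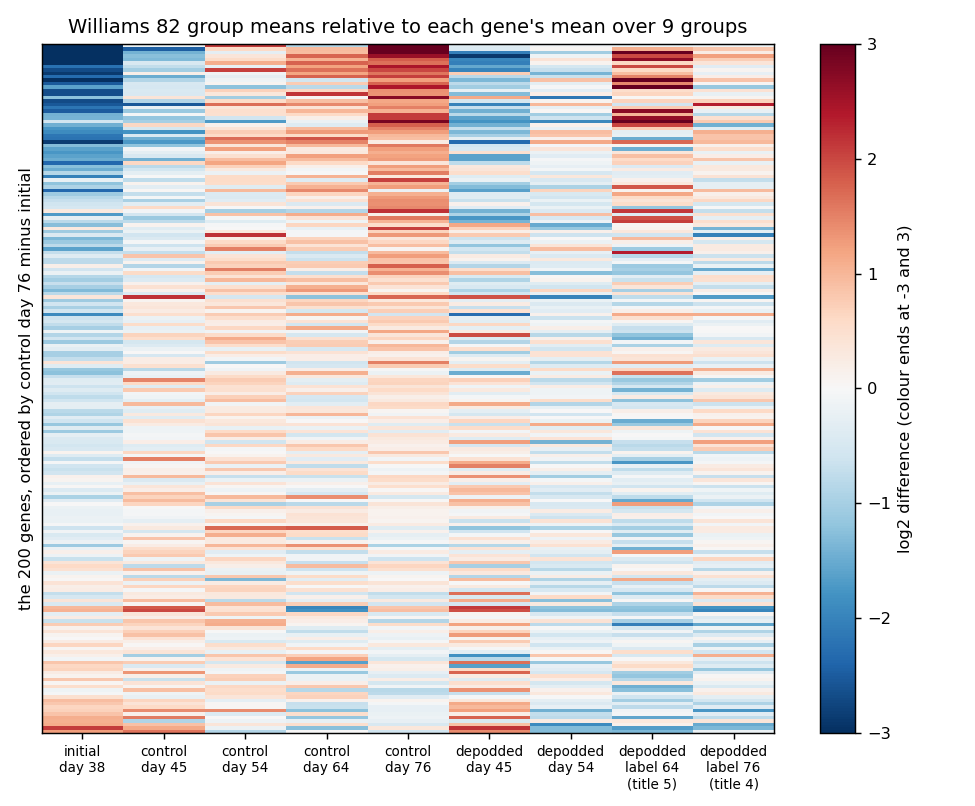
Group means of the 200 genes in Williams 82, each as a log2 difference from the gene's mean over the 9 groups (red higher, blue lower, colour ends at -3 and 3). Rows run from the gene with the largest difference between day 76 controls and initial leaves, 7.61, at the top to the lowest, -1.86, at the bottom, so the order of the initial and day 76 columns is fixed by the sorting; the depodded columns were not used to sort.

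Among the genes called higher at day 76, the 2 largest changes belonged to genes with almost no counts in initial leaves. Glyma.17G222300 had 0, 2.6 and 0 normalised counts in initial leaves and 2915, 161 and 55.6 at day 76. All 3 old libraries exceeded all initial ones, but replicate 1 held most of the total. The ratio of the means was 1200, with an exact 95% counting interval of 216 to 47600, and 125 (22 to 4960) without that replicate. Without initial replicate 2, which held its only initial counts, the ratio was at least 100 against 6 counts per library. The fitted change was 7.61 ± 1.2 (adjusted p = 2.1e-05). With only 2 counts in initial leaves, the interval covers counting error alone. Between these times the gene stood at 21.6, 16.2 and 20.1 at day 45 and at 162, 245 and 22.8 at day 54, and it was back at 21.2, 11.9 and 5.7 at day 64. In T295H it had 95.4, 20.2 and 86 in day 63 controls and 25.8, 24.9 and 604 in day 63 sterile leaves. The sterile mean of 218 was 25.3 without replicate 3, so its level mean in sterile leaves rested on that library.

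Glyma.13G248900 had no count in any initial library of Williams 82 and 294.6, 109 and 150 normalised counts in day 76 controls. Its day 76 mean was at least 19.3-fold higher than the level that 6 counts per initial library would give. The series between was ordered, with means of 2.51 at day 45, 24.5 at day 54, 39.4 at day 64 and 185 at day 76, although the day 54 and day 64 libraries overlapped. In T295H the same gene had 0, 0 and 4.3 in initial leaves, 99.5, 53.8 and 72 in day 63 controls and 102, 58.1 and 52 in day 63 sterile leaves. The young leaves of both lines thus held few or no counts of it, and old leaves of both lines held many.

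Among the 8 genes called lower at day 76 in Williams 82, the 2 lowest changes belonged to Glyma.01G087500 and Glyma.09G253100. Glyma.01G087500 fell by 1.86 ± 0.39 (log2, SE; adjusted p = 0.00052, limma), from 552, 1877 and 781 normalised counts in initial leaves to 281, 300 and 199 at day 76. The old libraries all lay below the young ones, and the day 45 controls, at 1598, 1183 and 917, were still as high as the initial leaves. In T295H the gene had moved up, from 251, 225 and 275 in initial leaves to 605, 689 and 639 in day 63 controls. Glyma.09G253100 fell by 1.31 ± 0.37 (adjusted p = 0.0061, limma), from 687, 707 and 847 to 236, 199 and 568, and its day 45 controls were already at 165, 127 and 319. In T295H it stood at 137, 212 and 232 in initial leaves and 1397, 696 and 1441 in day 63 controls.

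Depodding was then followed in Williams 82 to see whether the genes chosen as nearly level between sterile and control leaves of T295H were also level after mechanical sink limitation. At day 45 no gene of the 200 was called by limma (all genes: 0.00342% higher, 0.00685% lower), and the median difference of depodded from control leaves was -0.06. At an unadjusted p under 0.05, 8 were higher and 14 lower. edgeR called 0, and DESeq2 called 0 higher and 1 lower, with 120 of all genes called in either direction. The 200 genes were as little called here as the rest of the table.

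At day 54 the genes leaned downward. In depodded leaves 172 of the 200 had a lower mean than in controls, where 51.8% of all genes tested had a higher one, and the median difference was -0.44 against 0.02 for all genes. Limma called 2 lower and 0 higher (all genes: 0.534% higher, 0.346% lower), with 40 lower and 0 higher at an unadjusted p under 0.05. The number called lower was 2 by edgeR, 13 by DESeq2 and 19 with only the compared libraries fitted, and none of these fits called a gene higher. Among all genes, in either direction, these fits called 205, 1375 and 2096, against 257 in the main fit. The larger counts of the 200 thus came with more calls in the whole table. No gene was called lower by limma without depodded replicate 1 or 2 or control replicate 1 or 2. Without depodded replicate 3, 1 gene was called lower, but it was neither of these 2 (adjusted p = 0.093 for both, limma).

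The 2 genes called lower at day 54 differed in how their libraries lay. Glyma.02G150200 had 94.9, 85.8 and 72.3 normalised counts in controls and 30.6, 39.3 and 35.4 in depodded leaves, with no overlap (-1.24 ± 0.3, adjusted p = 0.045). Its limma call ended without any 1 of the 6 libraries, with adjusted p between 0.072 and 0.18, and with a replicate block, at 0.062. Glyma.15G250100 had 1174, 1672 and 294 in controls and 158, 140 and 66.8 after depodding (-2.86 ± 0.61, adjusted p = 0.025). Leaving out any depodded library, or control replicate 1 or 2, gave adjusted p between 0.084 and 0.11. By day 64 its controls, at 160, 89.2 and 159, were as low as the depodded leaves of day 54.

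In the last samplings, more of the genes were lower than higher after depodding, under either way of matching the groups. Depodded leaves labelled day 64 had 49 of the 200 lower and 12 higher than day 64 controls (all genes: 16.7% lower, 19.1% higher), with a median difference of -0.37. Depodded leaves labelled day 76 had 54 lower and 6 higher than day 76 controls (all genes: 22.2% lower, 24.2% higher), with a median of -0.58. The 54 became 31 without depodded replicate 1. With only the compared libraries fitted the 6 became 10, and with a minimum mean of 50 the 12 at day 64 became 6.

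With the groups matched by title number, the depodded leaves of title 4 had 17 lower and 0 higher than day 64 controls (all genes: 5.93% lower, 7.08% higher), with a median of -0.27. At an unadjusted p under 0.05, 5 were higher and 35 lower. edgeR called 0 higher and DESeq2 called 1. The depodded leaves of title 5 had 44 lower and 2 higher than day 76 controls (all genes: 12.5% lower, 15.8% higher), with a median of -0.59. The share of the 200 called lower was 24.5% and 27% by label and 8.5% and 22% by title, each above the share of all genes, while the share called higher was below it in all of these comparisons. Each control group and each depodded group enters more than 1 of these comparisons.

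A level response was not what set these genes apart in Williams 82. The share with a difference under 0.5 in either direction was 35.5% of the 200 in the leaves labelled day 64 (37.7% of all genes tested), 36.5% in those labelled day 76 (32.4%), 52% for title 4 (51.5%) and 33.5% for title 5 (45.7%). A second set of 200 T295H genes, chosen by the same rule except that day 63 sterile leaves were lower than controls by 0.5 or more, serves as a contrast: 194 of them were listed for Williams 82. Their median change with age to day 76 was 4.27, and of the 156 that were tested 117 rose and 0 fell. The median of the 200 genes in that comparison was 0.99, so the sets also differed in their change with age. Their median difference after depodding was -2.02 and -4.1 by label and -2.24 and -3.96 by title, with 10.3% or fewer within 0.5. The 200 genes, chosen as level between sterile and control leaves, lay between this set and all genes in the median of each late comparison. The difference between the sets was not tested.

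**Figure D4:**
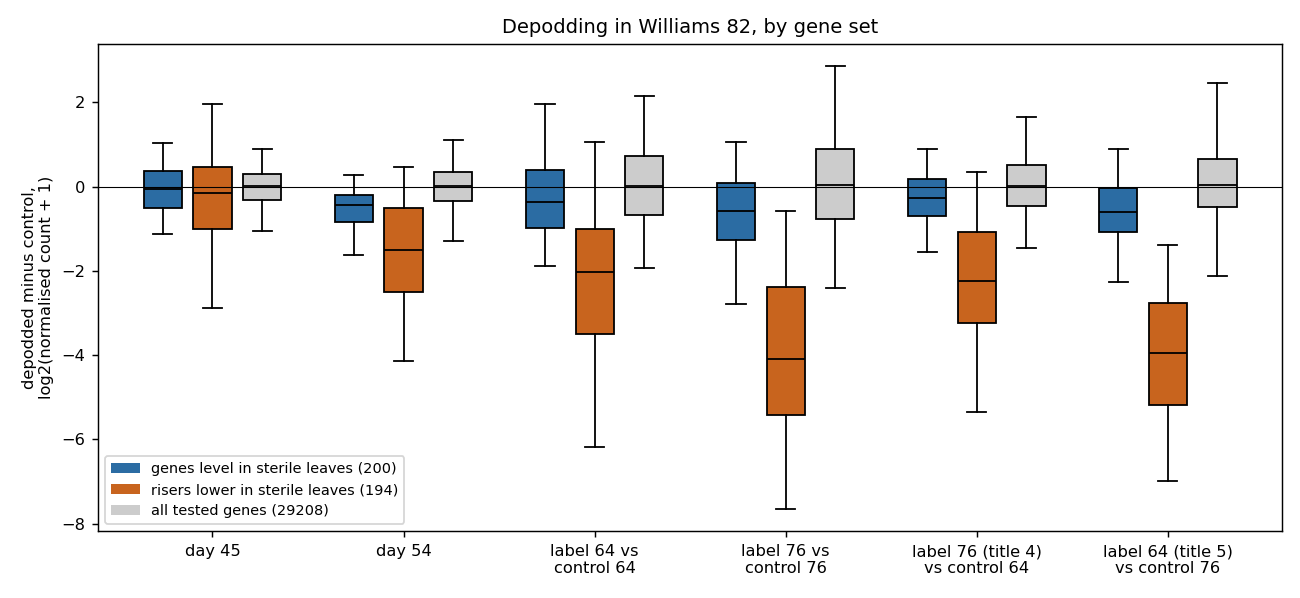
Difference of depodded from control leaves in Williams 82 (y axis, log2(normalised count + 1)) in 6 comparisons, for the 200 genes (blue), 194 listed genes of the contrast set that were lower in sterile leaves (orange) and all 29208 genes tested (grey). Boxes run from the 25th to the 75th percentile with a line at the median, whiskers from the 5th to the 95th; the medians of the 200 genes lie at -0.06, -0.44, -0.37, -0.58, -0.27 and -0.59 from left to right.

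The small differences seen with sterility in T295H did not order the late depodding differences in one way. In the 50 genes with the lowest sterile difference (-0.5 to -0.41), the median depodding difference was -0.83 in leaves labelled day 64 and -0.17 in those labelled day 76. In the 50 with the highest (-0.03 to 0.5), it was 0.22 and -1.02. The order of these outer sets of 50 was therefore opposite at the labelled days. With the groups matched by title number it was -0.31 and -0.27 for title 4 and -0.62 and -0.64 for title 5, so that both sets had similar medians. The numbers called lower in the lowest and the highest 50 were 21 and 8 at label 64 and 8 and 18 at label 76. They were 5 and 4 for title 4 and 11 and 11 for title 5. Of all genes, 16.7%, 22.2%, 5.93% and 12.5% were called lower in these 4 comparisons.

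The 89 genes that rose with age in the controls could be followed in the depodding comparisons whose groups were not compared in that test. All libraries of this line entered the same fit, so these tests shared the spread estimated for each gene. The counts called are therefore not independent of the choice of the 89. At day 45 and day 54 their median differences were -0.2 and -0.42, against 0.01 and -0.45 for the 111 others. In leaves labelled day 64, 20 of the 89 were lower and 8 higher, and of the 111 others 29 were lower and 4 higher (all genes: 16.7% lower, 19.1% higher). For title 4 the 89 had 7 lower and 0 higher and the others 10 and 0 (all genes: 5.93% lower, 7.08% higher). The difference between the genes that rose with age and the others was not tested.

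Depodded leaves themselves were older than the initial leaves, and many of the genes were higher in them too. Against initial leaves, 61 of the 200 were higher and 25 lower in depodded leaves labelled day 76 (all genes: 20.2% higher, 21.6% lower), with a median change of 0.46. In those labelled day 64, 61 were higher and 17 lower (all genes: 14.7% higher, 16.3% lower), with a median of 0.23. The day 76 controls had 89 higher and 8 lower against the same initial libraries. With a minimum mean of 50 the counts of higher genes were 38 and 37, and with only the compared libraries fitted the first was 36. The contrast set had medians of 0.22 and 0.19 in these depodded leaves, with 14 and 23 genes higher of the 156 tested.

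Among the genes called lower after depodding at the label of day 76, with no overlap of libraries and a control mean of at least 50, the lowest were Glyma.10G229700 and Glyma.11G198300. Glyma.10G229700 had 1506, 1840 and 1019 normalised counts in day 76 controls and 88.7, 136 and 177 in depodded leaves labelled day 76 (-3.44 ± 0.54, adjusted p = 2.6e-05, limma). The controls of day 64, at 515, 174 and 259, and the depodded leaves labelled day 64, at 439, 318 and 342, also lay below the day 76 controls. Among these late groups the day 76 controls were the high one. Of the earlier libraries, initial replicate 2 (1220) and depodded replicate 2 of day 45 (1147) lay within their range. By limma, the title 5 comparison with the day 76 controls was also called (-1.96, adjusted p = 0.0088). Title 4 against day 64 controls was not (-1.14, adjusted p = 0.17). In T295H, day 63 sterile leaves held 222, 203 and 225 and controls 311, 94.1 and 304, so that the sterile libraries lay inside the range of the controls.

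Glyma.11G198300 followed another course. Controls held 673, 450 and 294.6 normalised counts at day 45, 48.1, 43.6 and 32.8 at day 64 and 598, 283 and 207 at day 76, so that the day 64 libraries lay below all those of the other days named. Depodded leaves started as high, at 213, 470 and 502 at day 45, and stood at 16.4, 35.8 and 44.1 when labelled day 76 and 36.9, 74.1 and 66.9 when labelled day 64. No late depodded library reached the day 76 controls. The differences from those controls were -3.42 ± 0.66 by label (adjusted p = 0.00022) and -2.51 by title (adjusted p = 0.0059, limma). The day 64 controls, used in the other late pairings, overlapped both groups of late depodded leaves.

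**Figure D5:**
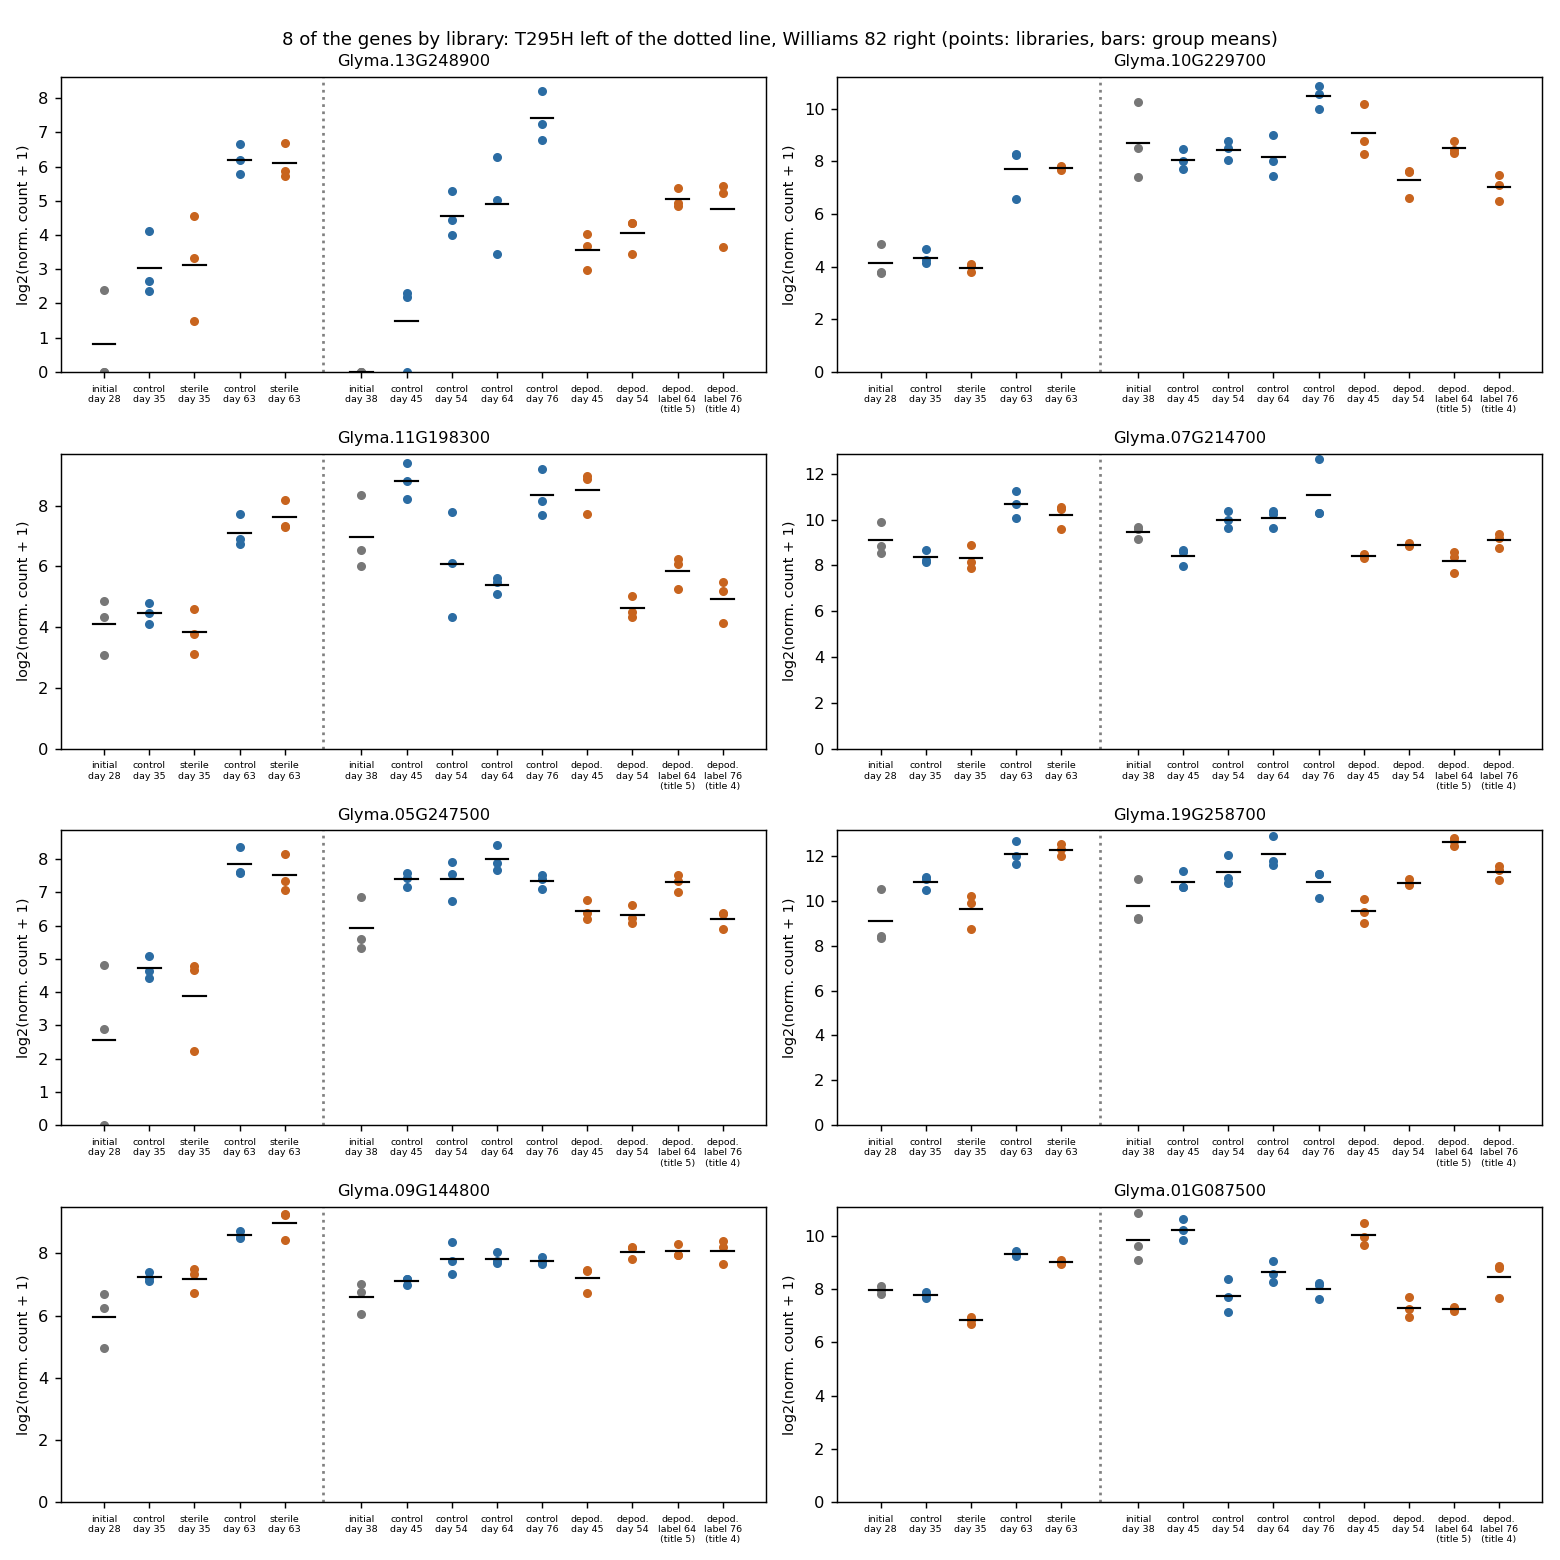
Values of 8 of the genes in every library, as log2(normalised count + 1), with T295H left of the dotted line and Williams 82 right of it; points are libraries (grey initial, blue control, orange sterile or depodded) and bars are group means, 3 libraries each. Glyma.13G248900 starts at 0 in the initial leaves of Williams 82, Glyma.10G229700 is highest in day 76 controls, and Glyma.09G144800 is at a similar level in late control and depodded leaves.

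In leaves labelled day 64, Glyma.14G021000 was lowest relative to its controls, with 98.2, 99.1 and 94 normalised counts in day 64 controls and 12.9, 9.26 and 4.9 after depodding (-3.38 ± 0.76, adjusted p = 0.0014, limma). The depodded leaves labelled day 76 held 34.5, 47 and 66.2 and overlapped day 76 controls at 55.5, 41.7 and 48.9. Those day 76 controls, which the leaves labelled day 64 match by title, also lay above the leaves labelled day 64. Glyma.18G209100 came next, with 425, 186 and 518 in controls and 73.7, 16.7 and 81.6 after depodding (-2.86 ± 0.93, adjusted p = 0.02). The day 76 controls of Glyma.18G209100, matched by title, held 36.4, 106 and 106 and overlapped these depodded leaves, so the large difference rests on the pairing by label. The call by label also ended without depodded replicate 2 (adjusted p = 0.12), day 64 control replicate 1 (0.064) or day 64 control replicate 3 (0.073), by limma.

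Genes higher after depodding were few. Glyma.19G099700 had 11.5, 0 and 7.12 normalised counts in day 64 controls and 47.9, 61.1 and 71.8 in depodded leaves labelled day 64 (3.69 ± 0.97, adjusted p = 0.0048, limma). Day 76 controls, at 24.3, 32.1 and 64, overlapped those depodded leaves, and the title 5 difference was 0.67 (adjusted p = 0.65). Glyma.17G227500 had no count in any initial library of Williams 82. It had 1.92, 3.97 and 12.8 in day 64 controls and 79.2, 38.9 and 108 in depodded leaves labelled day 64 (3.59 ± 0.76, adjusted p = 0.00087). Its day 76 controls held 39.9, 11.2 and 15.2, and the title 5 difference of 1.81 did not pass the threshold (adjusted p = 0.078). Both calls thus rest on the pairing by label.

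At the label of day 76 the genes called highest after depodding were Glyma.08G285900, with 1241, 834 and 634 normalised counts in controls and 1658, 3337 and 4873 in depodded leaves, and Glyma.04G057000, with 79.7, 75.5 and 130 in controls and 192, 340 and 270. Neither gene overlapped between the groups. The differences were 1.79 ± 0.57 (adjusted p = 0.014) and 1.49 ± 0.56 (adjusted p = 0.032, limma). The first call ended without depodded replicate 3 (0.071) or control replicate 3 (0.056), and the second without depodded replicate 2 or 3 or control replicate 1 or 2, with adjusted p between 0.069 and 0.11. By title, these depodded libraries against day 64 controls gave 1.62 (adjusted p = 0.062) and 0.72 (adjusted p = 0.41).

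Matched by title number, Glyma.05G247500 was lower in depodded leaves of title 4, at 82.1, 58.2 and 80.9 normalised counts, than in day 64 controls, at 233, 204 and 346 (-1.79 ± 0.33, adjusted p = 0.0013, limma). Its depodded leaves were also below every control of the same day at days 45 and 54, with 82.6, 73 and 108 against 189, 172 and 143 at day 45 and 98.4, 66.2 and 74.7 against 106, 240 and 186 at day 54. These earlier differences, -0.94 and -1.09, did not pass the threshold (adjusted p = 0.34 and 0.11). Glyma.10G006900 had 495, 357 and 501 in day 64 controls and 87, 76.1 and 93.8 in title 4 leaves (-2.37 ± 0.67, adjusted p = 0.022), a call that ended without control replicate 1 or 3 or depodded replicate 1 or 2, with adjusted p between 0.066 and 0.076.

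Against day 76 controls, the title 5 leaves were higher in Glyma.19G258700, with 5592, 7173 and 6445 normalised counts against 1113, 2333 and 2366 (1.8 ± 0.44, adjusted p = 0.0034, limma). Day 64 controls, which these leaves match by label, held 3494, 3101 and 7693 and overlapped them (0.54, adjusted p = 0.35). Glyma.17G087200 had 107, 68.5 and 80 against 39.9, 46.6 and 38.8 (0.99 ± 0.36, adjusted p = 0.041). That call ended with a replicate block (0.053) and without any 1 of the libraries except depodded replicate 2, with adjusted p between 0.056 and 0.15.

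The title 5 leaves were lower in Glyma.07G214700, with 380, 202 and 333 normalised counts against 6314, 1267 and 1259 in day 76 controls (-2.87 ± 0.41, adjusted p = 1.9e-05, limma). All controls lay above all title 5 leaves, control replicate 1 by the most, and without that replicate the difference was -2.1. By label the same leaves were below day 64 controls, at 1320, 793 and 1225 (-1.88, adjusted p = 0.0012), and the leaves labelled day 76, at 429, 660 and 585, were below day 76 controls (-1.97, adjusted p = 0.00048). The gene was therefore called lower in depodded leaves under 3 of the 4 late pairings, and title 4 gave -0.98 (adjusted p = 0.11). Glyma.17G222300, the gene with the largest rise with age, had 25.8, 7.41 and 34.3 in title 5 leaves (-3.9 ± 1.2, adjusted p = 0.018). This call ended without day 76 control replicate 1 (-2.26, adjusted p = 0.17), without depodded replicate 2 (0.083) and with only the compared libraries fitted (0.069).

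Among the genes that rose with age in Williams 82, the smallest late response to depodding was that of Glyma.09G230700 and Glyma.09G144800. Both were chosen for small differences, which are therefore a description. Glyma.09G230700 had 218, 229 and 146 normalised counts in initial leaves, 331, 302 and 329 in day 76 controls, 259, 389 and 232 in depodded leaves labelled day 76 and 300, 213 and 256 in those labelled day 64. Its rise of 0.72 ± 0.2 (adjusted p = 0.006) lost the call with only the compared libraries fitted (0.072) and without initial replicate 3 (0.055, limma). Its late depodding differences ran from -0.33 to 0.23.

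Glyma.09G144800 had 107, 127 and 65.6 normalised counts in initial leaves and 201, 233 and 209 in day 76 controls, a rise of 1.14 ± 0.27 (adjusted p = 0.0013, limma). Depodded leaves held 294, 201 and 335 when labelled day 76 and 249, 313 and 245 when labelled day 64, and the late differences ran from 0.24 to 0.34. In T295H it stood at 166, 137 and 145 in day 35 controls, 424, 356 and 367 in day 63 controls and 598, 618 and 344 in day 63 sterile leaves. Day 63 leaves of T295H, control or sterile, and late leaves of Williams 82, control or depodded, were above the initial leaves of their line in every library.

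The IDs place the genes on all 20 chromosomes, and 2 lie on scaffolds. Chromosomes 8 and 13 hold 19 each (9.5%, against 7.11% and 7% of the 7244 genes that met both conditions), and chromosomes 4 and 20 hold 5 each. In 9 pairs, taking in 18 of the 200, the ID numbers lie within 1000 of each other. In 4 of these pairs they are 100 apart, the step between successive IDs; these were singled out after their values were seen. Such neighbours may be copies that share reads, which could not be checked here.

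From initial leaves to day 76 controls of Williams 82, both genes of a pair had changes of the same sign in 3 of the 4 pairs. Glyma.08G326300 and Glyma.08G326400 both rose from initial leaves to day 76, by 6.22 ± 0.64 (adjusted p = 8.4e-08) and 4.39 ± 0.74 (adjusted p = 4.4e-05, limma). Glyma.10G043200 rose by 0.68 ± 0.18 (adjusted p = 0.0047), and its neighbour Glyma.10G043300 had a change of 0.29 (adjusted p = 0.19). Glyma.16G159100 rose by 2.51 ± 0.82 (adjusted p = 0.016), and Glyma.16G159200 had -0.2 (adjusted p = 0.74). Glyma.08G296700 and Glyma.08G296800 had -0.11 and -0.35 (adjusted p = 0.76 and 0.22). The differences within pairs were not tested.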

How the data were processed

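RNA of trifoliate leaves was sequenced in 42 libraries. The authors deposited 1 table per line, whose values are a signal per gene: gene counts divided by a factor per library. Bowtie2 and DESeq2 appear in the submitters' processing notes without versions or roles, and no source used here gives the genome build. Counts were recovered from the step of each library's values. 100% of values came out whole within 0.01, and 98.9% (Williams 82) and 99% (T295H) of counts above 0 were even, so limits and counting intervals use pairs of counts (3 pairs, or 6 counts, per library; 95% exact Clopper-Pearson), and they cover counting error only.

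The genes and lists were chosen with earlier results of these data known. Williams 82 values were tested as log2(normalised count + 1) with limma 3.58.1 (R 4.3.3, 1 mean per group over 27 libraries, trend) in genes with a mean of at least 10. A fold change on this scale understates the change of low genes. p-values were adjusted by Benjamini-Hochberg over all 29208 genes tested, with a threshold of 0.05. Counts at an unadjusted p under 0.05 are given without a share of all genes. Alternatives were a pseudocount of 5, no filter, a minimum mean of 50, only the compared groups, a replicate block, edgeR 4.0.16 and DESeq2 1.42.0 on recovered counts (edgeR also on halved counts), title numbers, and each library left out. The fit was tested on simulated data. For day 76 against initial leaves, recovered counts gave 12709 called genes by edgeR, and the normalised values gave 12790 by limma. Replicate numbers paired the libraries only for day 76 against day 64 controls (deviations correlated at 0.18, 0.27 and 0.17).

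Per comparison, the named genes were the 2 highest and 2 lowest changes among called members whose libraries did not overlap and whose higher group averaged 50 or more, plus the 2 with the largest excess, the ones at the limit of the choice, and 2 risers with the least late depodding difference. No ID matched the 59048 genes of the RefSeq table (assembly Glycine_max_v4.0), so no names, sequences or product lists were used. Coordinates are not given.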

Additional observations from a re-analysis of the deposited data

Results flagged for a closer look

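For 6 of the genes, all libraries moved one way in one comparison and the opposite way in another. The difference between the comparisons was not tested for any of them, and all values are log2 differences. Glyma.01G087500 was lower at day 76 than in initial leaves of Williams 82 (-1.86) and higher at day 63 than in initial leaves of T295H (1.36). Glyma.09G253100 gave -1.31 and 2.56 in the same comparisons. The T295H differences were not tested, since those libraries chose the genes.

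Glyma.13G248900 was lower in depodded leaves labelled day 76 than in day 76 controls (-2.63) and higher in depodded leaves of day 45 than in their controls (2.06). Glyma.19G099700 was lower after depodding at label 76 (-2.05) and higher at label 64 (3.69). Glyma.04G057000 was lower at label 64 (-1.52), and higher both at label 76 (1.49) and at day 54 (0.72). Glyma.17G087200 was higher at label 64 (1.96) and lower at day 45 (-0.94). The late values of these 4 genes use the day labels that the titles contradict. Their differences at days 45 and 54 were not called. After depodding, limma called none of the chosen genes at day 45 and none higher at day 54. The 2.06 of Glyma.13G248900 rests on few counts, with 30 in all depodded libraries of day 45 and 8 in their controls.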

How the results depend on the processing

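Of the counts of genes called, 194 values under alternatives stayed within 1.5 times the reported count and 36 did not. Of the single genes named, 247 values kept their side of the threshold and 36 lost it, and no value changed sign. The reasons were not tested, except that a minimum mean of 50 tests 137 of the 200 genes. With that minimum, genes higher at day 76 than in initial leaves numbered 54 and genes higher in depodded leaves labelled day 64 numbered 6 against controls and 37 against initial leaves, with 38 for label 76 against initial leaves. With only the compared groups fitted, 57 were higher and 3 lower at day 76, 0 were higher at day 45, 19 were lower in depodded leaves of day 54, and at label 76, 10 were higher than controls and 36 higher than initial leaves. For depodded leaves of day 54, 1 gene was lower with no filter, 1 with the replicate block, 4 by edgeR on halved counts and 13 by DESeq2. At day 45 against initial leaves 10 were higher by edgeR and 11 on halved counts. DESeq2 called 1 lower after depodding at day 45 and 4 higher at day 64 against day 54. Title numbers gave 0 higher and 17 lower at control day 64, and 2 higher at control day 76.

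With 1 library left out, 71 to 106 genes were higher and 4 to 11 lower at day 76 than in initial leaves. The counts ran from 3 to 65 higher at day 45 against initial, 16 to 23 at day 54 against 45, 0 to 0 at day 64 against 54 and 20 to 31 at day 76 against 64. After depodding they were 0 to 0 both ways at day 45, 0 higher and 0 to 2 lower at day 54, 8 to 13 higher and 34 to 47 lower at label 64, and 4 to 8 higher and 31 to 47 lower at label 76. Against initial leaves, 41 to 72 were higher at label 76 and 45 to 62 at label 64. The choice of the 200 genes, checked after seeing the data, kept 134 to 189 of them without 1 library and 187 with a pseudocount of 5.

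With the replicate block, 30 rather than 33 genes rose from day 64 to day 76, and besides the count at day 54 above it moved no count by over 1.5 times. In the other comparisons the libraries share only a number. Of the genes named, Glyma.02G150200 and Glyma.17G087200 lost their call under the block (adjusted p = 0.062 and 0.053, limma). The 3 libraries per group limit the precision, and genes near the minimum mean of 10 rest on few counts.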
